A study of Homo sapiens with 2 samples.

Results

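The transcripts described here encode 24 lysosomal enzymes and proteins, 16 subunits of the vacuolar proton pump (V-ATPase) and the transcription factors TFEB and TFE3, 42 genes of the 57351 symbols in the table. They were chosen by name, with earlier results of these data known, and each symbol was found once. Total RNA came from 22Rv1, an established human prostate cancer cell line, and was sequenced as 1 library of cells with a short hairpin RNA vector control (shCON) and 1 library of cells with a hairpin against EIF3F (shEIF3F). Both groups were the same line with a hairpin construct and no other treatment is given, and with 1 hairpin its other effects cannot be told apart from loss of EIF3F, a subunit of translation initiation factor eIF3. There were no replicates, so nothing below has a test, an error or a replicate check, and a difference is a difference between these 2 libraries.

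Values are TPM, a level per transcript length and per library total, so levels of different genes can be set side by side. TPM keeps no read number, and the depth behind each value is unknown. A log2 ratio is log2((shEIF3F TPM + 1) / (shCON TPM + 1)), which understates differences of genes near 1 TPM, and a gene past 1 or -1 on that scale is called at least 2-fold higher or lower, a rule of size only. EIF3F itself stood at 991 and 17.0 TPM in shCON and shEIF3F. All 9 prostate luminal markers were above 1 TPM in both libraries, keratin KRT8 the most at 300.8 and 347 TPM, but 5 were at least 2-fold lower in shEIF3F, among them the kallikreins KLK4 (log2 ratio -3.29), KLK2 (-3.26) and KLK3 (-1.87), and 1 was higher, the adhesion molecule EPCAM (1.73). All 12 macrophage markers, which mark another cell type rich in lysosomes, were below 1 TPM in both libraries (highest 0.45).

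Lysosomes are the acidic compartment in which cells break down proteins, glycans and lipids that arrive by endocytosis or autophagy. The V-ATPase keeps the compartment acidic: its cytosolic V1 sector hydrolyses ATP, and that drives a rotor through the membrane sector V0, which carries protons inward. TFEB and TFE3 are related transcription factors that move to the nucleus when the kinase complex mTORC1 is inactive and bind the CLEAR motif, an E-box shared by many lysosomal promoters.

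Promoters of these genes are shown because the CLEAR core can be read in them directly. The windows are RefSeq sequence of build GRCh38.p14, whereas hg19 is named for the deposited table, which itself holds no coordinates. Of the 42 genes, 31 had a window of 300 bases in the table used, from 250 bases before the annotated start to 50 after it, and the first listed start was taken. Each sequence below runs 5′ to 3′ on the gene's strand and ends 5 bases after the start, and capitals mark the hexamer CACGTG, which reads the same on both strands. They are LAMP1 (chr13:113296989-113297243, plus strand), CTSA (chr20:45891085-45891339, plus), CTSD (chr11:1763923-1764177, minus), ATP6V0B (chr1:43974710-43974964, plus) and GLA (chrX:101407921-101408175, minus), picked after their values were seen: LAMP1 and CTSA were higher in shEIF3F, the other 3 lower.
LAMP1: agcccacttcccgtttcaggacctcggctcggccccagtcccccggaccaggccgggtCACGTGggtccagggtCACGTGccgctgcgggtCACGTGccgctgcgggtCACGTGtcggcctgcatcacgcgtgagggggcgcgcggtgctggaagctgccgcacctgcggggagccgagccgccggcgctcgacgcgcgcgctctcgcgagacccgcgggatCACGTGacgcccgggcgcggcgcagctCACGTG
CTSA: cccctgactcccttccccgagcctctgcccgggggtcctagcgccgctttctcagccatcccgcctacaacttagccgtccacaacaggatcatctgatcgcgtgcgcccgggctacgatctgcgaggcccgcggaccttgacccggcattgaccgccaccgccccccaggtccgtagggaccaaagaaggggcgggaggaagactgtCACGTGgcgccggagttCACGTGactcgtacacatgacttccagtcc
CTSD: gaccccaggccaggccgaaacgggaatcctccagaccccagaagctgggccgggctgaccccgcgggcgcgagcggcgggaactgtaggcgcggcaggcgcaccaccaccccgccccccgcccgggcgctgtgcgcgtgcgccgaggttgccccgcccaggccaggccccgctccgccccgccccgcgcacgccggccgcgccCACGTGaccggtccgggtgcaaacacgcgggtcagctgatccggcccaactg
ATP6V0B: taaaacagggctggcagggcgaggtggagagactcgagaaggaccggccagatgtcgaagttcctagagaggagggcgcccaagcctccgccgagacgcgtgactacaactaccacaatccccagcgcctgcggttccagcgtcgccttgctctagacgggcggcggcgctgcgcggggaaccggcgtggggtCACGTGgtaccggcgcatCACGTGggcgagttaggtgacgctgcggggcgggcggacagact
GLA: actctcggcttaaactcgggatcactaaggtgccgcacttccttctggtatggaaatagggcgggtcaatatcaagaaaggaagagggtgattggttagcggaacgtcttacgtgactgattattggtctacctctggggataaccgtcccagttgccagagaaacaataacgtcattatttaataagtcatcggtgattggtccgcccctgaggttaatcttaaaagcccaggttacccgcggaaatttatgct

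The LAMP1 window held 6 copies of CACGTG, and 1 of all 27305 gene windows held that many. Of these copies 4 lie in tandem, with their first bases 192, 176, 159 and 142 bases upstream of the start. CTSA held 2 copies 42 and 25 bases upstream, ATP6V0B 2 copies 57 and 39 bases upstream, CTSD 1 copy 47 bases upstream, and GLA none. CACGTG was found in 11 of the 31 member windows (35.5%) against 7.43% of all 27305, and 2 or more copies in 6 (19.4%) against 0.696%. The extended form TCACGTGA, which contains the hexamer, was in 6 member windows (19.4%, against 1.04% of all), and the longer CLEAR palindrome, with a G before that form and a C after it, in 3 (GAA, MCOLN1 and ATP6V1G1, 9.68% against 0.381%). A match is a string of letters and not a measured binding site, and the motif was described in lysosomal genes, by which name the members were chosen, so the share is no independent evidence.

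Among the 31 members with a window, genes with and without the hexamer were found in both directions. Members without a window could not be placed. The 11 genes with it had a median log2 ratio of 0.23 and ran from -1.68 for ATP6V0B to 1.54 for CTSA, with 2 at least 2-fold higher and 2 lower. The 20 genes without it had a median of -0.035 and ran from -2.28 for GLA to 1.53 for CD68, with 3 higher and 3 lower. Of all genes tested, 8.43% were at least 2-fold higher and 25.5% lower. Whether the hexamer goes with the ratio was not tested.

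**Figure D1:**
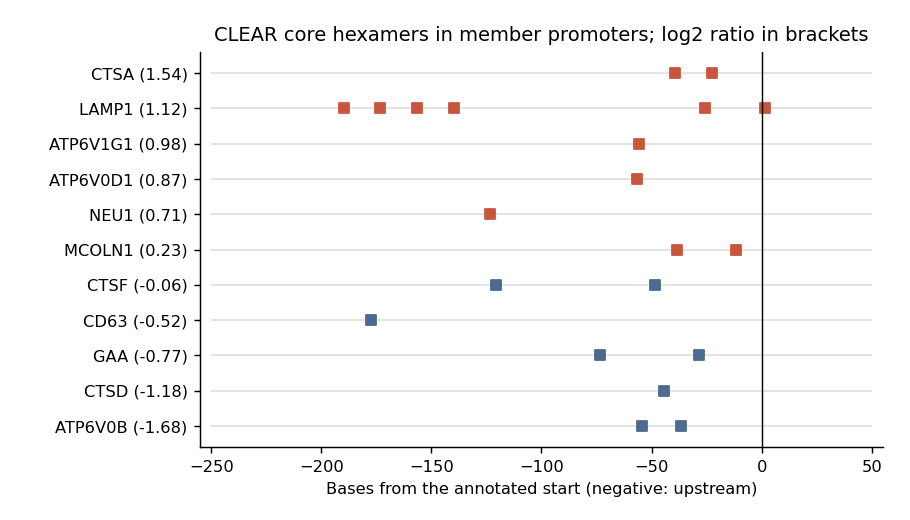
Position of each CACGTG hexamer (squares) along the 300-base promoter window of the 11 members that hold it, in bases from the annotated start, with the gene's log2 ratio in brackets (red, above 0; blue, below 0). Of the 21 copies, 13 begin within 60 bases upstream of the start, and genes with copies stand at both ends of the log2 ratio.

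Averaged over the 2 libraries, 41 of the 42 members reached 1 TPM, and CTSS, a cathepsin of antigen-presenting cells, was below it at 0.21 and 0.08 TPM. Of these 41, 6 (14.6%) were at least 2-fold higher in shEIF3F, where 8.43% of all 13306 genes tested were, and 5 (12.2%) were at least 2-fold lower, where 25.5% of all genes were. The higher ones were CTSA, TPP1, LIPA, LAMP1, CD68 and ATP6V0E1, and the lower ones GLA, ATP6V0B, CTSD, TFEB and TFE3. The other 30 were within 2-fold. The median log2 ratio of the members was 0.23, against -0.36 for all genes tested and 28 of the 41 lay above that median of all genes. In bulk RNA, fewer cells with a transcript and less of it per cell cannot be told apart.

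How the libraries are scaled decides how many members are past 2-fold. After the median of all genes was subtracted (centring), 12 members were higher and 2 lower, where 14.7% and 16% of all genes were. With the libraries rescaled without their 100 most abundant genes the counts were 15 and 2, against 14.8% and 16.1% of all genes. Log2 ratios also went down with transcript GC content across all genes, and with that trend removed 12 members were higher and 2 lower, against 13.2% and 13.9%. GLA and ATP6V0B were the 2 lower genes each time, and CTSD, TFEB and TFE3 were within 2-fold under each of these 3 scalings. CTSA, TPP1, LAMP1 and ATP6V0E1 were at least 2-fold higher, and GLA and ATP6V0B lower, as deposited and in all 10 alternatives run.

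Summed over the 42 members, the level hardly differed, at 3878 TPM in shCON and 3674 in shEIF3F (0.392% and 0.370% of all TPM). That sum rests on a few abundant transcripts: CD63, ATP6V1F and ATP6V0B were each among the most abundant members in shCON and each lower in shEIF3F. Without CD63 alone the sums were 2979 and 3047 TPM.

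**Figure D2:**
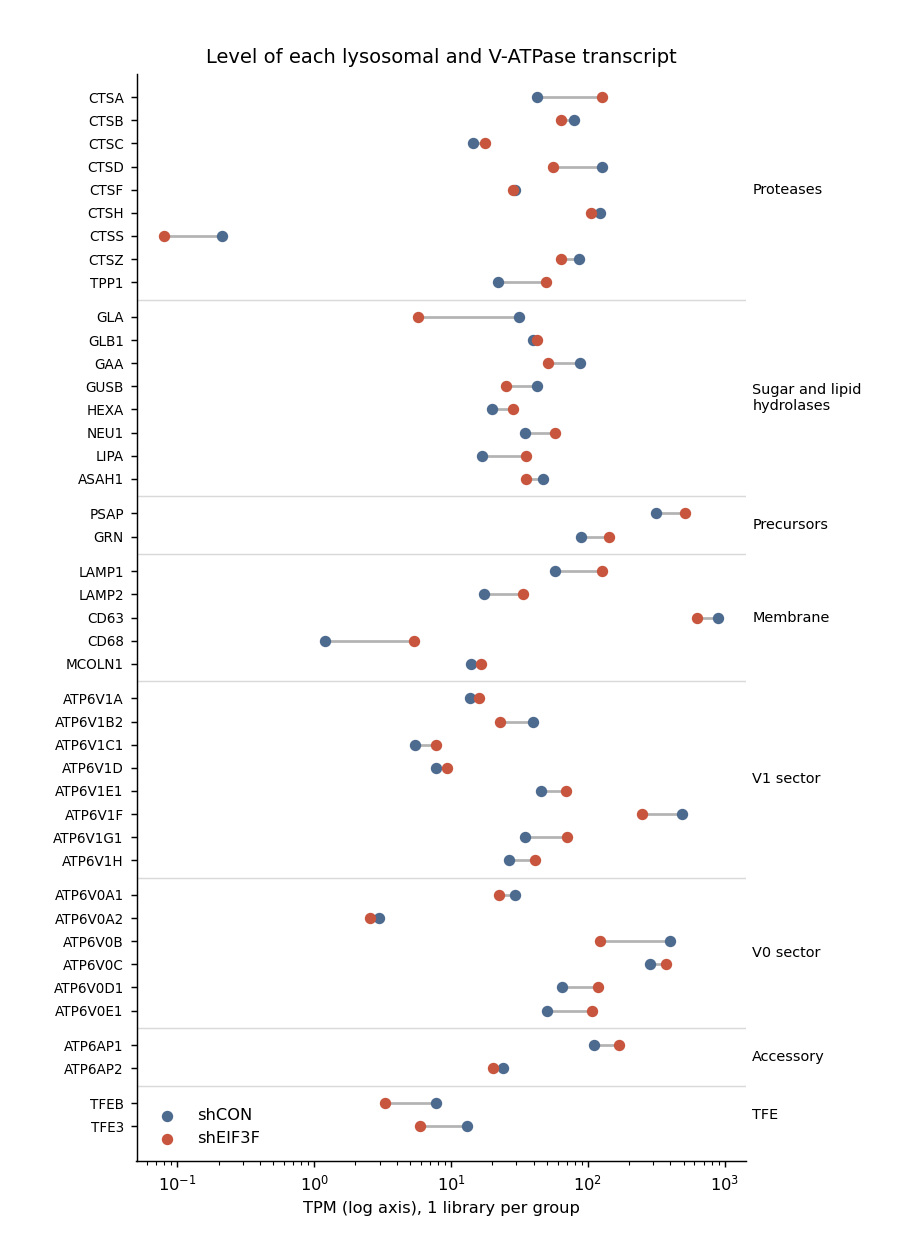
TPM of each of the 42 members in shCON (blue) and shEIF3F (red) on a log axis, 1 library per group, grouped by role, with a grey line joining the values of one gene. Most pairs lie close together, while CTSA, GLA, CD68 and ATP6V0B show long lines.

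**Figure D3:**
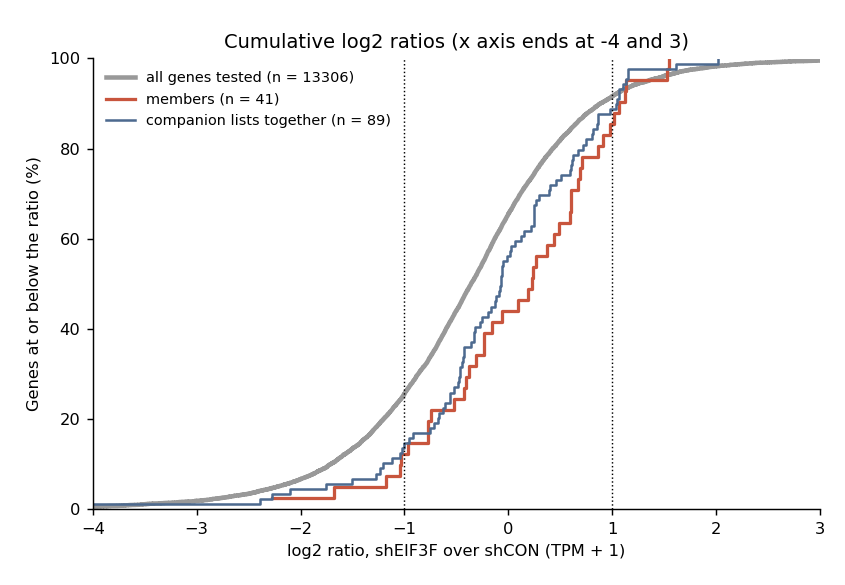
Percentage of genes at or below each log2 ratio for all 13306 genes tested (grey), the 41 measured members (red) and the 89 measured genes of the companion lists (blue), with dotted lines at 2-fold. The member curve lies to the right of all genes through the middle of the range and meets it near the upper end.

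Of the 8 lysosomal proteases measured, 2 (25%) were at least 2-fold higher and 1 (12.5%) lower, against 8.43% and 25.5% of all genes tested. Their median log2 ratio was -0.14, against -0.36 for all genes tested. CTSA, a serine carboxypeptidase that also protects beta-galactosidase and neuraminidase in a complex, stood at 42.4 TPM in shCON and 125.7 in shEIF3F (log2 ratio 1.54). Of all genes tested, 96.4% were at or below that ratio, which was the highest of the members on this scale. With a pseudocount of 0.1, or with the GC or the length trend removed, CD68 was above it. TPP1, a tripeptidyl peptidase lost in a form of Batten disease, stood at 21.9 and 49.3 TPM (1.14). CTSD, the main aspartic protease of the lysosome, went the other way at 127.7 and 55.8 TPM (-1.18), and its ratio was -0.26 with the GC trend removed, its transcript being 64.0% GC.

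The other cathepsins lay within 2-fold. The cysteine proteases CTSB, at 79.5 and 63.8 TPM, and CTSH, at 123.2 and 105 TPM, were near the middle of all genes, with log2 ratios of -0.31 and -0.23. CTSZ, a carboxypeptidase, stood at 85.7 and 63.5 TPM (-0.43), and CTSF at 29.5 and 28.3 TPM (-0.06). CTSC, the dipeptidyl peptidase that activates granule proteases, stood at 14.4 and 17.6 TPM (0.27). In shCON the order of level was CTSD, CTSH, CTSZ, CTSB, CTSA, CTSF, TPP1, CTSC, and in shEIF3F CTSA came to the top of it, ahead of CTSH.

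Among the 8 enzymes that act on sugars and lipids, 1 was at least 2-fold higher and 1 lower. These are 12.5% each, against 8.43% and 25.5% of all genes tested. GLA, the alpha-galactosidase deficient in Fabry disease, had the lowest ratio of all members, at 31.6 TPM in shCON and 5.73 in shEIF3F (log2 ratio -2.28). Only 4.63% of all genes tested were at or below that ratio. LIPA, the acid lipase that frees cholesterol and fatty acids from lipoprotein lipids, stood at 16.9 and 35.2 TPM (1.02), just past the 2-fold limit, and was within it with a pseudocount of 5 (0.88).

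NEU1 and GLB1, the partners of CTSA in its complex, had smaller ratios than CTSA. The sialidase NEU1 stood at 34.6 and 57.4 TPM (log2 ratio 0.71), and the beta-galactosidase GLB1 at 39.9 and 42.5 TPM (0.09). HEXA, the alpha subunit of beta-hexosaminidase, stood at 20 and 28.45 TPM (0.49).

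The remaining enzymes of the group had ratios below 0. The alpha-glucosidase GAA, which breaks down glycogen, stood at 87.5 and 50.8 TPM (log2 ratio -0.77), but at 0.14 with the GC trend removed, its transcript being 64.1% GC. The beta-glucuronidase GUSB stood at 42.55 and 25.02 TPM (-0.74). Its reads can be shared with 11 pseudogenes in the table, which together held 14.4 and 7.36 TPM, so its value is uncertain. The acid ceramidase ASAH1 stood at 46.9 and 35.2 TPM (-0.40), close to the median of all genes.

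PSAP and GRN, the secreted precursors that are cut into small helper proteins in the lysosome, were higher by similar amounts. PSAP, the source of the saposins that present lipids to hydrolases, stood at 315 TPM in shCON and 510.6 in shEIF3F (log2 ratio 0.70). GRN, which encodes progranulin, stood at 88.8 and 141.7 TPM (0.67). Neither was past 2-fold as deposited, but both passed it once centred (1.05 and 1.03) or corrected for GC (1.22 and 1.43).

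Of the 5 membrane proteins, 2 (40%) were at least 2-fold higher, against 8.43% of all genes tested. LAMP1, which with LAMP2 forms most of the glycoprotein coat on the inner face of the lysosomal membrane, stood at 57.2 and 125.6 TPM (log2 ratio 1.12), and LAMP2 at 17.3 and 33.5 TPM (0.92). The tetraspanin CD63 was the most abundant member in both libraries, at 899 and 627 TPM (-0.52), so the LAMP transcripts and CD63 had ratios of opposite sign. After centring CD63 was at -0.16 and with the GC trend removed at 0.0023, so its direction relative to other genes depended on the scaling. MCOLN1, the calcium channel of the lysosomal membrane, stood at 13.96 and 16.55 TPM (0.23).

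CD68, a LAMP family protein best known from macrophages, stood at 1.2 and 5.34 TPM (log2 ratio 1.53). Its level was low in both libraries, and with a pseudocount of 5 its ratio was 0.74. None of the 12 macrophage markers reached 1 TPM, with summed levels of 1.23 and 0.90 TPM, and CD163, C1QA, C1QB, C1QC and MRC1 were listed at 0 in both. In GENCODE release 29 CD68 shares exons with the antisense gene AC016876.1, which stood at 37.2 and 19.6 TPM. The use of strand in counting is not stated, so reads of the 2 genes cannot be told apart.

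In that annotation 8 members share exons with a gene whose mean over the 2 libraries was 1 TPM or more: CTSA, CTSD, TPP1, GLB1, CD63, CD68, MCOLN1 and ATP6V1D. For CTSA the most abundant partner is PLTP on the opposite strand, which stood at 29.5 and 4.32 TPM, lower in shEIF3F where CTSA was higher. The 33 measured members without such a partner had a median log2 ratio of 0.19, and the 8 with one had a median of 0.23. Of the 33, 3 (9.09%) were at least 2-fold higher and 4 (12.1%) lower, against 8.43% and 25.5% of all genes. Of the 8, 3 (37.5%) were higher and 1 (12.5%) lower.

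**Figure D4:**
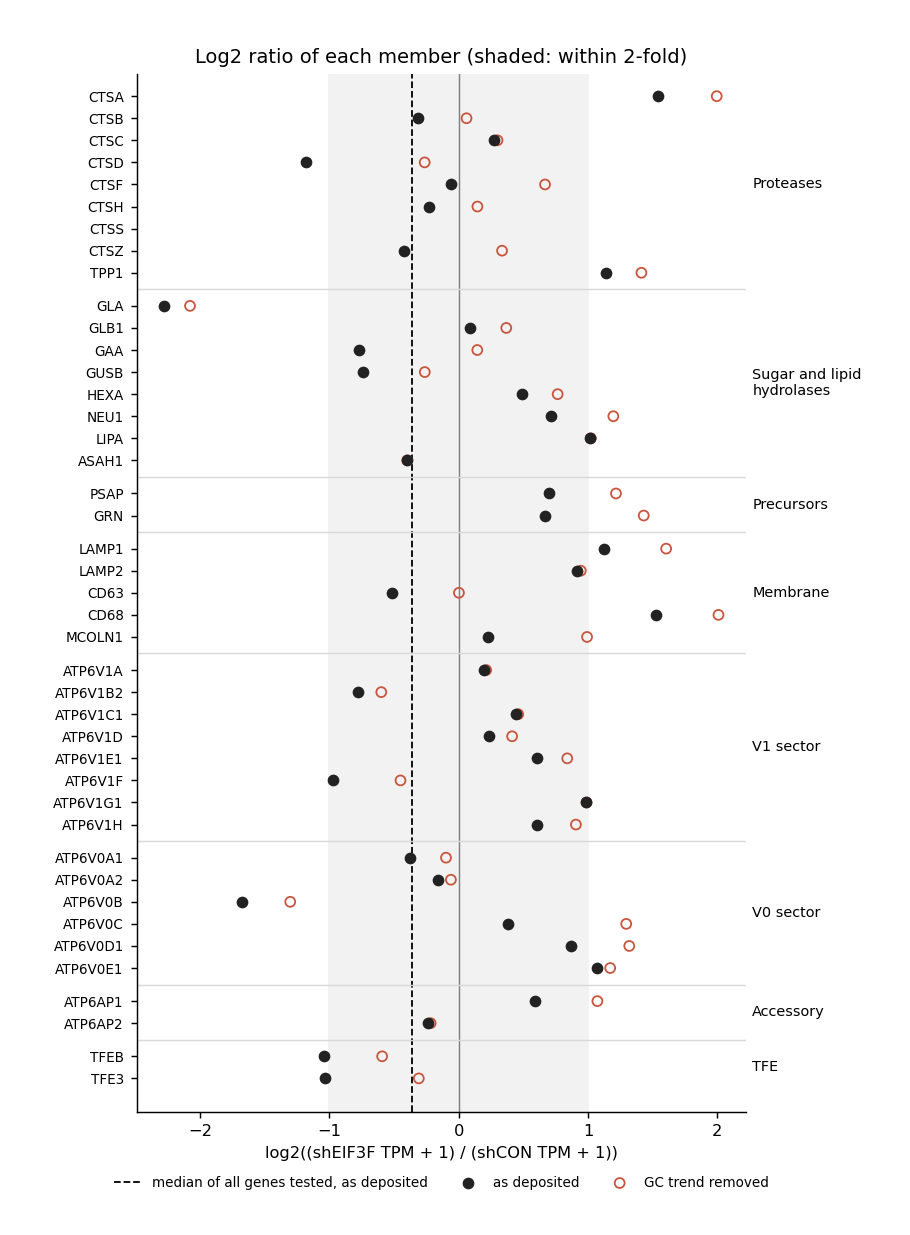
Log2 ratio of each measured member as deposited (black) and with the GC trend removed (open red), grouped by role, with the median of all genes tested dashed at -0.36 and the range within 2-fold shaded. The open circles of the GC-rich transcripts CTSD, GAA and ATP6V0C lie well to the right of the black ones, while GLA and ATP6V0B stay left of the shaded range.

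The 16 V-ATPase genes were all measured, and 14 of them were within 2-fold as deposited. Of the 16, 1 (6.25%) was higher and 1 (6.25%) lower, against 8.43% and 25.5% of all genes tested. The median log2 ratio of the 16 was 0.31, with ATP6V0E1 the highest at 1.07 and ATP6V0B the lowest at -1.68. Although the median was above 0, the summed level was lower in shEIF3F, at 1620 and 1415 TPM, since ATP6V1F and ATP6V0B are abundant and were lower. Rescaled without the 100 most abundant genes, 6 of the 16 were higher and 1 lower, against 14.8% and 16.1% of all genes. With the GC trend removed 4 were higher and 1 lower, against 13.2% and 13.9%.

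None of the 8 V1 genes passed 2-fold as deposited with 1 TPM added, where 8.43% of all genes tested were higher and 25.5% lower. ATP6V1G1 passed it with 0.1 TPM added (log2 ratio 1.0017) and after centring (1.34). Rescaled without the 100 most abundant genes, 3 of the 8 were higher and none lower, against 14.8% and 16.1% of all genes. They were ATP6V1G1, ATP6V1E1 (1.03) and ATP6V1H (1.03). ATP6V1G1 and ATP6V1H were also higher with the length trend removed, against 14.5% of all genes. With the GC trend removed none of the 8 passed 2-fold. The catalytic subunit ATP6V1A stood at 13.8 and 16.0 TPM (log2 ratio 0.19), and its partner in the nucleotide-binding ring, ATP6V1B2, at 39.5 and 22.7 TPM (-0.78). These subunits occur in equal number in the pump, and the ratio of their transcripts differed between the libraries.

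In the V1 rotor, ATP6V1D stood at 7.76 and 9.31 TPM (log2 ratio 0.24) and ATP6V1F at 484 and 246.6 TPM (-0.97), just inside the 2-fold limit. ATP6V1F, whose longest annotated transcript of 711 bases is the shortest of the members, was the most abundant V1 transcript in both libraries and held 73.7% of summed V1 TPM in shCON and 51.1% in shEIF3F. The subunits of the outer stalks had ratios above 0: ATP6V1G1 stood at 34.8 and 69.7 TPM (0.98), at the limit, and ATP6V1E1 at 45.3 and 69.6 TPM (0.61). ATP6V1H, which holds the detached V1 sector inactive, stood at 26.4 and 40.8 TPM (0.61), and ATP6V1C1, which joins V1 to V0, at 5.44 and 7.74 TPM (0.44).

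Of the 6 V0 genes, 1 was at least 2-fold higher and 1 lower (16.7% each, against 8.43% and 25.5% of all genes). ATP6V0B and ATP6V0C encode the c″ and c proteolipids that together form the proton-carrying ring. ATP6V0B stood at 395 TPM in shCON and 123 in shEIF3F (log2 ratio -1.68), and ATP6V0C at 286 and 372 TPM (0.38). ATP6V0B thus made up 58.0% of the proteolipid TPM in shCON and 24.8% in shEIF3F, and the more abundant of the pair was ATP6V0B in shCON and ATP6V0C in shEIF3F. ATP6V0C has 4 pseudogenes in the table, all listed at 0. Whether reads shared with them were counted for ATP6V0C or dropped is unknown. The same holds for ATP6V0E1 (4 pseudogenes), ATP6V1G1 (5) and ATP6V1E1 (1), all listed at 0.

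ATP6V0E1, one of the alternative forms of the small subunit e, stood at 50.3 and 106.8 TPM (log2 ratio 1.07). Its other form ATP6V0E2 went the opposite way, at 123 and 59.9 TPM (-1.03). Their sum was 173 and 167 TPM, and the share of ATP6V0E1 in it was 29.04% in shCON and 64.06% in shEIF3F. ATP6V0E2 was within 2-fold with the GC trend removed (-0.26), while ATP6V0E1 was not (1.17). The grouping by subunit was made after the values were seen.

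Subunit a, which forms the proton half-channels and sends the pump to its membrane, had a summed level of 46.3 TPM in shCON and 30.3 in shEIF3F. ATP6V0A1 stood at 29.2 and 22.3 TPM (log2 ratio -0.38) and ATP6V0A2, the Golgi form, at 2.99 and 2.57 TPM (-0.16). TCIRG1, the a3 form of lysosomes and osteoclasts, was lower at 13.9 and 5.49 TPM (-1.20), though at -0.054 with the GC trend removed. The kidney form ATP6V0A4 stood at 0.16 TPM in shCON and was listed at 0 in shEIF3F. ATP6V0D1, which couples the ring to the V1 rotor, stood at 64.1 and 117.9 TPM (0.87), and its alternative form ATP6V0D2 was listed at 0 in both libraries.

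Subunit C had forms of near-equal level, with ATP6V1C1 at 45.7% of its TPM in shCON and 55.7% in shEIF3F, beside ATP6V1C2 at 6.47 and 6.16 TPM. ATP6V1C2 shares exons with PDIA6 on the opposite strand, at 186.9 and 109.5 TPM, so its value and these shares are uncertain. By listed TPM, subunits B, E and G were nearly all 1 form in both libraries: ATP6V1B2, ATP6V1E1 and ATP6V1G1 made up at least 93.9% of their subunit's TPM in each. For subunit G this is uncertain, since ATP6V1G2 shares exons on the same strand with the entry ATP6V1G2-DDX39B, at 12.8 and 33.7 TPM. The accessory subunits had ratios of opposite sign. ATP6AP1, which takes part in assembly of V0, stood at 110.9 and 167.5 TPM (log2 ratio 0.59), and ATP6AP2, the prorenin receptor, at 23.9 and 20.1 TPM (-0.24).

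**Figure D5:**
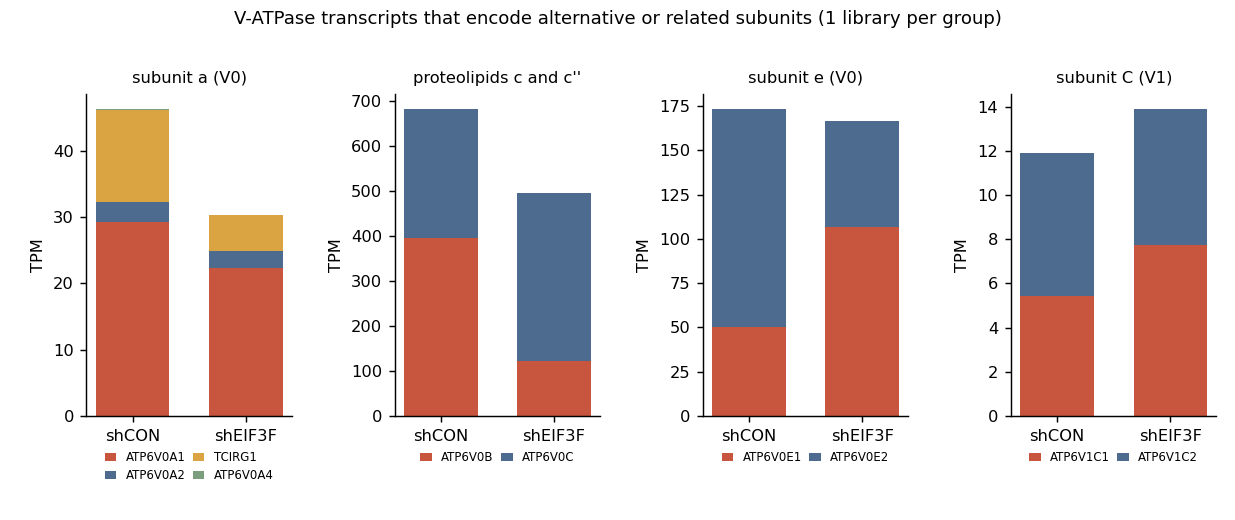
Stacked TPM in shCON and shEIF3F of the transcripts that encode alternative forms of V-ATPase subunits a, e and C and the related proteolipids c and c″, 1 library per group. For subunit e the height of the bars is nearly equal (173 and 167 TPM) while the share of ATP6V0E1 is larger in shEIF3F, and for the proteolipids the share of ATP6V0B is smaller.

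TFEB and TFE3 were both lower, as deposited by almost the same ratio. TFEB stood at 7.79 TPM in shCON and 3.27 in shEIF3F (log2 ratio -1.04) and TFE3 at 13.1 and 5.91 TPM (-1.03). Of all genes tested, 24.2% were at or below the TFEB ratio and 24.4% at or below that of TFE3. Both were within 2-fold after centring (-0.68 for each). With the GC trend removed the ratios were less alike, at -0.59 for TFEB and -0.31 for TFE3. Their activity is set by location in the cell, which RNA levels do not report. The related factor MITF was below 1 TPM in both libraries (0.54 and 0.41) and TFEC was listed at 0.

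Of the 38 other lysosomal hydrolases and their helpers, 34 were measured, with a median log2 ratio of -0.018. Of these, 5 (14.7%) were at least 2-fold higher and 6 (17.6%) lower, against 8.43% and 25.5% of all genes tested. IFI30, the thiol reductase that unfolds antigens, stood at 208 TPM in shCON and was listed at 0 in shEIF3F. It shares exons with the protein-coding entry AC007192.1 on the same strand, at 30.4 and 36.4 TPM, so how reads were divided between them is uncertain. The thioesterase PPT1, lost in infantile Batten disease, was lower, at 53.0 and 11.6 TPM (-2.10). PPT1 shares exons with CAP1 on the opposite strand, at 60.7 and 53.7 TPM, so its value is also uncertain. CTSO was highest, at 0.58 and 3.86 TPM (1.62), and reached a mean of 1 TPM only through shEIF3F.

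Of 18 measured further lysosomal membrane proteins, 1 (5.56%) was at least 2-fold higher and 2 (11.1%) lower, against 8.43% and 25.5% of all genes. The 2-pore channel gene TPCN2 stood at 12.9 and 1.65 TPM (log2 ratio -2.39), and the chloride exchanger gene CLCN7 at 17.9 and 6.83 TPM (-1.27). With the GC trend removed CLCN7 was within 2-fold (-0.13), while TPCN2 was not (-1.63). SCARB2, also called LIMP-2, which carries glucocerebrosidase to lysosomes, was the higher one at 17.8 and 40.3 TPM (1.14), and OSTM1, the partner of CLCN7, stood at 1.32 and 3.57 TPM (0.98).

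The 13 genes that tag and sort lysosomal enzymes were nearly all within 2-fold. Of them, 1 was higher and 1 lower (7.69% each, against 8.43% and 25.5% of all genes tested). GNPTG, a subunit of the enzyme that starts the mannose 6-phosphate tag, stood at 18.7 and 42.9 TPM (log2 ratio 1.16), and the Golgi adaptor GGA1 at 74.97 and 31.31 TPM (-1.23). With the GC trend removed GGA1 was within 2-fold (-0.47), while GNPTG was not (1.61). GGA3 stood at 8.53 and 4.04 TPM (-0.92) and the retromer gene VPS26A at 4.36 and 8.79 TPM (0.87). GNPTG shares exons with UNKL (7.57 and 0.83 TPM) and GGA3 with MRPS7 (108 and 91.4 TPM), each on the opposite strand. Their values are therefore uncertain.

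Of 10 measured V-ATPase isoforms and assembly factors outside the members, 1 was at least 2-fold higher. It was DMXL1, which helps reassemble the pump, at 0.81 and 6.33 TPM (log2 ratio 2.02). DMXL1 reached a mean of 1 TPM only through shEIF3F. TCIRG1 and ATP6V0E2 were the 2 lower ones, and the assembly factor VMA21 stood at 4.6 and 1.88 TPM (-0.96). The shares were 10% higher and 20% lower, against 8.43% and 25.5% of all genes tested.

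The genes that hold mTORC1 at the lysosome or control TFE factors had a median log2 ratio of -0.45, near that of all genes. Of 14 measured, 2 were at least 2-fold higher and 2 lower (14.3% each, against 8.43% and 25.5% of all genes). Of the 5 Ragulator subunits, LAMTOR2 stood at 287.6 and 84.6 TPM (-1.75) and LAMTOR4 at 495 and 246 TPM (-1.01). With the GC trend removed LAMTOR4 was within 2-fold (-0.28), while LAMTOR2 was not (-1.30). LAMTOR1 (-0.63) and LAMTOR5 (-0.68) also had ratios below 0, and the least abundant, LAMTOR3, stood at 6.2 and 14.1 TPM (1.07). FNIP2, a partner of folliculin, stood at 0.38 and 1.85 TPM (1.05) and reached a mean of 1 TPM only through shEIF3F. Over all 89 measured genes of these lists 10 (11.2%) were higher and 13 (14.6%) lower, against 8.43% and 25.5% of all genes tested. Their median was -0.07, against -0.36 for all genes tested. After centring 19 were higher and 6 lower, where 14.7% and 16% of all genes were. Of the genes called as deposited, CTSO, DMXL1 and FNIP2 reached a mean of 1 TPM only through shEIF3F, and IFI30 only through shCON.

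Within the members the log2 ratio went only weakly with the GC content of the transcript: Spearman's rho was -0.178 over 41 members of the same 2 libraries, against -0.318 over 13029 genes. The 6 members of 60% GC or more had a median log2 ratio of 0.086, where the 2318 genes of that GC content had -0.91. The 10 members under 45% GC had a median of 0.36, where the 4094 such genes had -0.040. Transcript length and mean TPM went with the ratio still less among members (rho 0.024 and 0.041). Genes are not independent replicates, and these values are descriptions.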

How the data were processed

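Sequencing libraries were prepared from Trizol-extracted RNA using the TruSeq RNA kit of Illumina, per the labels' protocols. The submitters' processing notes name CASAVA, HISAT2 (no versions) and hg19. The gene counter, its annotation and any strand setting were not given in the sources used here. TPM values per gene were deposited by the authors, rounded to 2 decimals, for 1 library per group, so depth is unknown and no interval was computed. Among 58884 entries, the 1533 with a repeated symbol were added to their namesakes, and 27 with symbols turned into dates and 6052 symbols of small RNA genes were left out. The filter kept genes averaging at least 1 TPM, and log2 ratios used a pseudocount of 1. The GC content and length of the longest transcript came from GENCODE release 29 (97.9% of genes tested, all 42 members), in 20 bins for trend removal. Promoters came from RefSeq (GRCh38.p14).

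The members and lists were chosen with earlier results of these data known. Genes named were all members, EIF3F, up to 4 genes with the largest absolute log2 ratio of each companion list and the cell type markers, and others (the V-ATPase subunit forms, LAMTOR1, LAMTOR5, MITF, TFEC and genes that share exons) were chosen after their values were seen. Some list genes the rule covers are not reported here. The companion list entry TLDC1 was not matched in the table. Python 3.11.15, NumPy 2.4.6, pandas 2.3.3, SciPy 1.17.1 and matplotlib 3.10.9 were used, and the ratios and counts were tested on simulated data.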

Additional observations from a re-analysis of the deposited data

How the results depend on the processing

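As deposited, 6 members were at least 2-fold higher and 5 lower (8.43% and 25.5% of all genes tested were), with a median log2 ratio of 0.23. Centring on the median of all genes gave 12, 2 and 0.59, rescaling without the 100 most abundant genes 15, 2 and 0.62, removal of the GC trend 12, 2 and 0.41, and removal of the length trend 13, 2 and 0.53. The shares of all genes higher and lower were 14.7% and 16% after centring and 14.8% and 16.1% after rescaling. They were 13.2% and 13.9% with the GC trend removed, and 14.5% and 16.4% with the length trend removed. Each of these 4 settings sets the median of all genes to about 0 and so raises the ratios of most members by construction. A pseudocount of 5 left 4 higher members (LIPA, 0.88, and CD68, 0.74, were no longer past 2-fold) and 3 lower ones (without TFEB and TFE3), since it draws the ratios of low genes toward 0. At that pseudocount 3.55% of all genes were higher and 14.3% lower. A pseudocount of 0.1, no filter on TPM, a mean of 5 TPM or more (39 members measured), the most abundant entry per symbol and keeping small RNA genes left the counts within 1.5 times and the median within 0.1. No member past 2-fold changed sign in any of the 10 alternatives. No paired analysis was possible because each group has 1 library. Unknown depth limits the low values most, such as those of CD68, ATP6V0A2 and ATP6V1C1.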
